A study of Rattus norvegicus with 47 samples.

Results

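The 10 genes described here are expressed by macrophages and dendritic cells, and were measured in kidney RNA of rats that carried metal pellets. Their symbols are Csf1r, Flt3, Cd14, Cd163, Mrc1, Cd68, Itgam, Adgre1, Tyrobp and Lat2. They were chosen by symbol from the 22525 genes of the deposited count table, with earlier results of these data known. All 10 passed the filter on low counts, among 15868 genes tested. In the study, rats were allotted at random to a pellet metal, and the kidney was taken 12 months after the implant operation. The pellets were 1 mm across and 2 mm long and were made of tantalum (Ta), cobalt (Co), lead (Pb), tungsten (W), aluminum (Al) or depleted uranium (DU). Ta, which the submitters describe as inert, is the reference, so the animals compared with each metal also carried a pellet and had had the operation. There were 7 Pb libraries and 8 of each other metal, 47 in all, and each library has an animal code of its own. The labels used here give no strain, sex, age or number of pellets per rat. They name no batch either, but the animal codes run in 1 block per metal, so any effect of handling order and the metal cannot be told apart.

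Macrophages are tissue phagocytes that depend on growth factors acting through the receptor Csf1r, while dendritic cells present antigen to T cells and depend on Flt3 ligand acting through Flt3. The healthy kidney holds a network of resident macrophages and dendritic cells between its tubules, and circulating monocytes and neutrophils can enter it after injury. Several of the 10 genes are shared between these cells: Itgam, Cd14 and Tyrobp are also expressed by monocytes and neutrophils. In RNA from whole tissue, fewer cells of a type and less RNA per cell cannot be told apart.

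Total counts per library ran from 21604755 to 35775818, with a median of 26363810, and values are given as CPM, the count divided by the scaled library total in the usual unit. Kidney markers fixed as a list were abundant: the summed CPM of the proximal tubule genes had a median of 9771 in Ta, 7469 in Pb, 8154 in Al, 8560 in DU, 9137 in Co and 10298 in W. The balance between ribosomal protein genes (73 genes) and genes for very large proteins (20 genes), taken as a difference of mean log2 CPM, differed between the metals. It was 1.42 ± 0.28 (SD, n = 8) in Ta, 1.83 ± 0.26 in W, 2.14 ± 0.29 in DU, 2.26 ± 0.41 in Co, 2.35 ± 0.43 in Al and 3.11 ± 0.48 (n = 7) in Pb. Every Pb and every DU library lay above every Ta library on this measure, and calls and fold changes are therefore also given below with the balance as a covariate.

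A few libraries stood apart in the 10 genes and bear on most results. Ta replicate 4 was the highest Ta library for 9 genes, all but Cd163. Ta replicates 4, 5 and 6 were the highest 3 Ta libraries for 9 genes, the exception being Cd14. The summed CPM of the 10 genes was 48.8 to 263 in Ta, with a median of 76.2, and 70.0 to 500 in DU, with a median of 140. It was 42.9 to 108 in Pb, 24.2 to 119 in W, 26.2 to 129.3 in Co and 38.1 to 147 in Al. DU replicate 6 was the highest DU library for 7 genes and the highest of all 47 libraries for Cd68, Cd163, Cd14, Mrc1, Itgam and Tyrobp. DU replicate 5 was among the highest 2 DU libraries for all 10 genes, and DU replicate 1 among the lowest 2 for all 10.

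**Figure D1:**
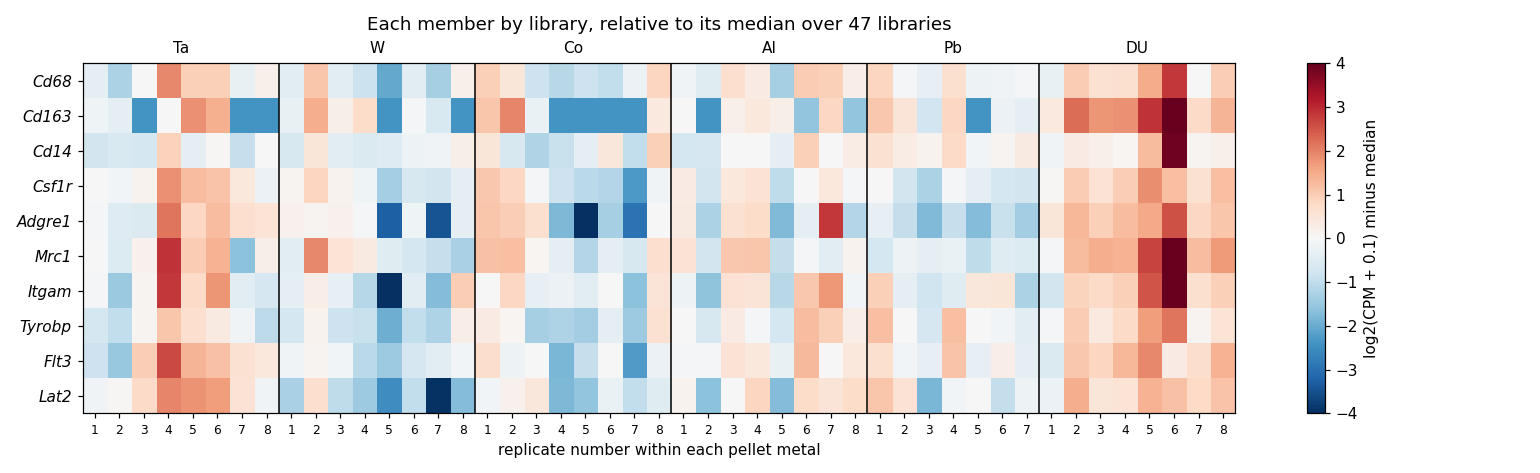
Each column is a library by its replicate number, in blocks by pellet metal, and each row is a gene. The colour is log2(CPM + 0.1) minus the gene's median over all 47 libraries. DU replicate 6, DU replicate 5 and Ta replicate 4 are the columns furthest above the median, and in DU replicate 6 Flt3 and Lat2 are not raised to the extent of Cd14, Mrc1, Itgam and Cd163.

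Markers of other cells also set these libraries apart. In DU replicate 6 the neutrophil list summed to 303 CPM against 1.97 to 10.2 in the other DU libraries, and the fibroblast and pericyte list to 1203 against 227 to 825. The proximal tubule list summed to 1331 in that library against 7568 to 11112, the thick ascending limb list to 702 against 1397 to 6596, and the collecting duct list to 136.8 against 482 to 1424. DU replicate 6 was therefore low in transcripts of the tubule lists and high in those of the neutrophil list. The list of T and NK cell genes summed to 49.6, 24.8 and 34.0 in Ta replicates 4, 5 and 6 against 7.61 to 10.9 in the other 5 Ta libraries. The part of these other cells in the results below was not tested, and results are given with and without the libraries concerned. Ta replicates 4 to 6 are high in 9 of the genes, so leaving them out lowers Ta by construction.

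The sequences upstream of 4 of the genes that passed the test against Ta are shown. Mrc1 and Adgre1 were lower in Pb than in Ta, and Flt3 and Lat2 were lower in W and in Co. Mrc1 was also higher in DU. Each is the 250 bases before the annotated start site, 5′ to 3′ on the gene's strand, from RefSeq on build GRCr8, whereas the counts were made on mRatBN7.2. Mrc1 is at chr17:82157475-82157724, Adgre1 at chr9:2329190-2329439, Flt3 at chr12:12659785-12660034 and Lat2 at chr12:27740465-27740714, each on the plus strand. Capitals mark GAGGAA, the core of the site known for the myeloid transcription factor PU.1, or TTCCTC, the same site on the other strand.
Mrc1: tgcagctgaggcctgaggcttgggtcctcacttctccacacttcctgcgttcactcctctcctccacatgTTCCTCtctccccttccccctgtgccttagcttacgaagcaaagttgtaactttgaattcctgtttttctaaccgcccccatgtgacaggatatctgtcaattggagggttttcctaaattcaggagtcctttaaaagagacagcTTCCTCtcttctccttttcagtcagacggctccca
Adgre1: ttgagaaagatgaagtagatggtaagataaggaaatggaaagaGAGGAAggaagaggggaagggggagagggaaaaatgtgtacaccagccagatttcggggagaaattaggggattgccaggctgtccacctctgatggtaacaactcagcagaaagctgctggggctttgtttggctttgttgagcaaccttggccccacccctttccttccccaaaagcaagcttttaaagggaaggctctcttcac
Flt3: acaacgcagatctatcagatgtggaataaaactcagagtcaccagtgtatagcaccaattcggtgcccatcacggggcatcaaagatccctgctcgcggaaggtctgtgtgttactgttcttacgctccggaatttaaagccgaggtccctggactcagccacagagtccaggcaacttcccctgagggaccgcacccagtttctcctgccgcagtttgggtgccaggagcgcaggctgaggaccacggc
Lat2: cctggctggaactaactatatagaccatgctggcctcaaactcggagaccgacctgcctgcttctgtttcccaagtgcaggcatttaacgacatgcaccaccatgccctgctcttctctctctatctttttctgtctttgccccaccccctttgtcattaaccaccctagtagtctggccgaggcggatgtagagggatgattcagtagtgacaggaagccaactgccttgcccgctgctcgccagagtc
The matches begin at -180 and -35 from the start site in Mrc1 and at -207 in Adgre1, and neither Flt3 nor Lat2 holds one. Of the genes that passed and are not shown, Csf1r (lower in Pb) and Cd14 (higher in DU) hold 2 matches each. Cd163, higher in DU, holds none. Promoters of 9 of the 10 genes were found in the RefSeq table, Tyrobp being the one not found. Over windows of 300 bases that include the first transcribed bases, 6 of these 9 hold GAGGAA on either strand, against 27.6% of 33469 rat promoters. The longer GAGGAAG, which overlaps it, is held by 6 of 9 and by 12.4% of promoters. Spi1, the gene for PU.1, was measured at 10.2 ± 4.85 CPM (SD, n = 8) in Ta, and none of the 5 metals differed from Ta in it, with adjusted p from 0.216 in W to 0.986 in Pb. A match is a run of letters in this window and nothing more is read from it.

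Against Ta, a few of the 10 genes were lower in W, Co and Pb and a few were higher in DU. All tests are edgeR's quasi-likelihood test on 1 fit over the 47 libraries, with Benjamini-Hochberg adjustment over all genes tested and a threshold of 0.05. In W, 2 of the 10 genes were lower (Flt3 and Lat2) and none higher, where 1.78% of all genes tested passed. In Co the same 2 genes were lower and none higher, where 25.8% of all genes passed. In Pb, 3 were lower (Csf1r, Adgre1 and Mrc1) and none higher, where 53.7% of all genes passed. In DU, 3 were higher (Cd163, Cd14 and Mrc1) and none lower, where 15.3% of all genes passed. In Al none of the 10 passed edgeR's test, where 25.2% of all genes did, and none had an unadjusted p under 0.05. DESeq2 and limma with sample weights called 0 of the 10 in Al as well. So in Co, Al and Pb the share of the 10 that passed was below the share of all genes, and in W and DU it was above it. Median log2 fold changes of the 10 genes were -0.85 for W, -0.80 for Co, -0.51 for Al, -0.92 for Pb and 0.79 for DU, beside -0.03, -0.07, -0.04, -0.07 and -0.01 over all genes tested. Without Ta replicates 4, 5 and 6 the medians were -0.03 for W, 0.24 for Co and 0.63 for Al. They were then 0.26 for Pb and 1.53 for DU. These are the high Ta libraries for most of the 10 genes, so leaving them out raises the medians by construction. The medians depend on these libraries, and no direction is read from the negative ones. The 5 comparisons share the Ta libraries, so their directions are not independent of each other.

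A test of any difference among the 6 metals passed for 10 of the 10 genes, with adjusted p (edgeR's quasi-likelihood test) from 1.79e-05 for Mrc1 to 0.0253 for Cd68, where 58.4% of all genes passed. Among the 5 metals without Ta it also passed for all 10, from 1.56e-05 for Mrc1 to 0.0167 for Cd68, where 53.2% of all genes passed. DU had the highest median CPM of the 6 metals for 9 genes, and Pb for Cd14. Without DU replicate 6, 6 of the 10 genes passed each of these tests, where 57.8% (6 metals) and 51.7% (5 metals) of all genes passed, so the count was then near the share of all genes.

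**Figure D2:**
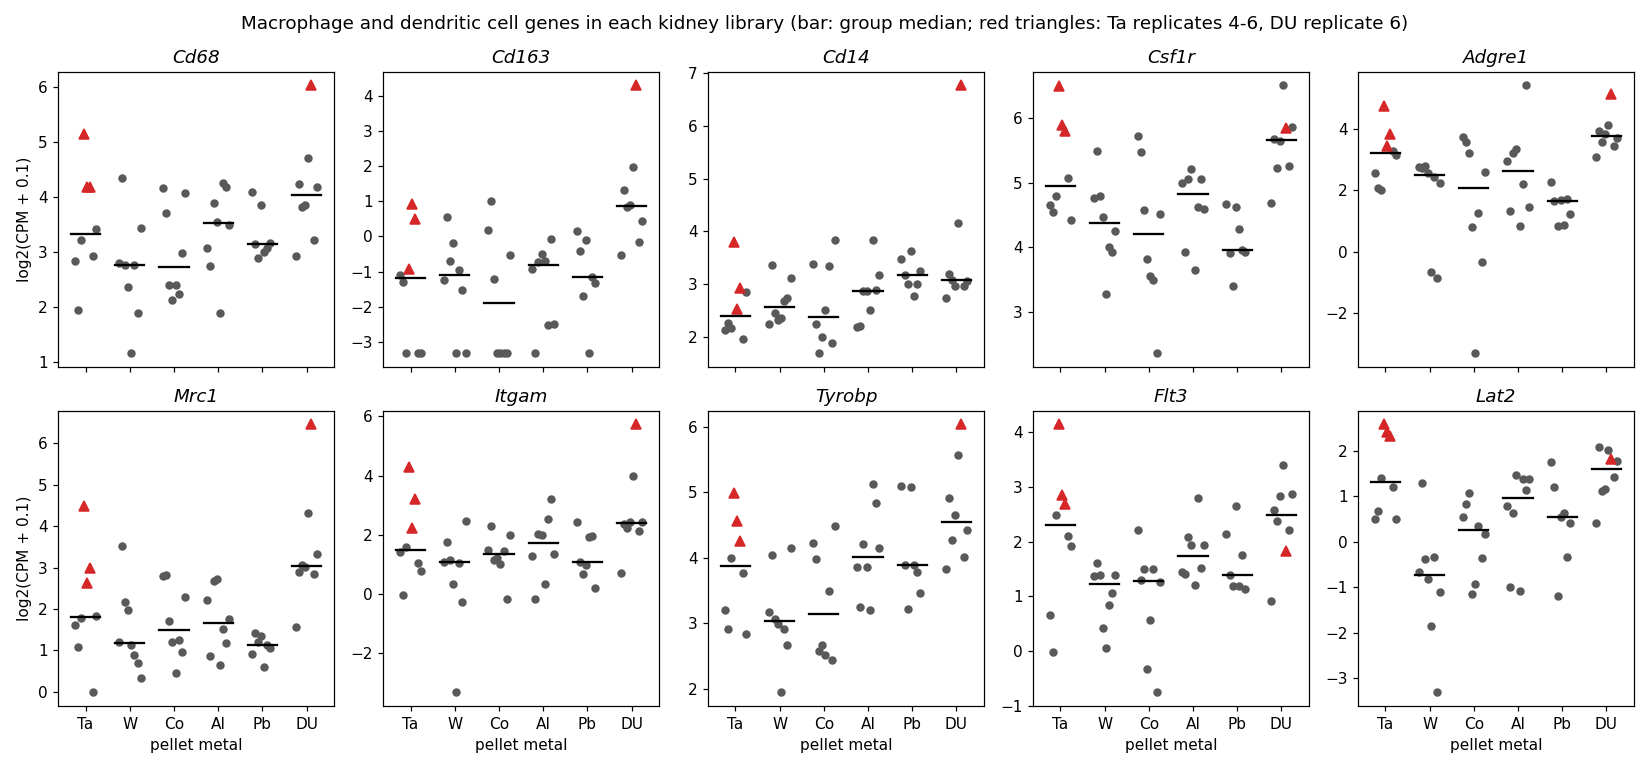
Each panel is a gene, and each point a library, at log2(CPM + 0.1) on the vertical axis by pellet metal on the horizontal axis; bars are medians and red triangles mark Ta replicates 4 to 6 and DU replicate 6. The DU points lie above every Pb point for Csf1r, Adgre1 and Mrc1, while DU and Ta overlap in every panel.

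Csf1r is the receptor for the growth factors Csf1 and Il34, on which tissue macrophages depend for survival. Its lowest, median and highest CPM were 21.3, 30.6 and 90.0 in Ta and 10.4, 15.4 and 25.2 in Pb. In Pb, 5 of 7 libraries lay below every Ta library and all 7 below the Ta median, although the groups overlapped. Csf1r fell by 1.24 on the log2 scale in Pb (SE 0.36, adjusted p = 0.00333, edgeR's quasi-likelihood test). The same 3 values were 9.61, 20.6 and 44.9 in W, 5.0, 18.3 and 52.8 in Co, 12.4, 28.1 and 37.1 in Al, and 25.6, 50.4 and 91.1 in DU. The W and Co libraries reached below the lowest Ta library in 4 of 8 cases each, yet the differences did not pass: -0.89 ± 0.34 (SE) in W, adjusted p = 0.13, and -0.86 ± 0.34 in Co, adjusted p = 0.0578, by edgeR's quasi-likelihood test. In DU, 7 of 8 libraries lay above the Ta median, with a log2 fold change of 0.28 ± 0.34 and an edgeR adjusted p of 0.635.

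Flt3 is the receptor for Flt3 ligand, which drives the making of dendritic cells. Flt3 CPM at the lowest, median and highest library were 0.888, 4.83 and 17.6 in Ta, 0.934, 2.23 and 2.94 in W, and 0.490, 2.34 and 4.55 in Co. All 8 W and all 8 Co libraries lay below the Ta median, but no W library and only 2 Co libraries lay below every Ta library, because Ta replicates 1 and 2 were themselves low. Flt3 fell by 1.52 in W (SE 0.41, adjusted p = 0.0461) and by 1.44 in Co (SE 0.41, adjusted p = 0.00876) on the log2 scale, by edgeR's quasi-likelihood test. Without Ta replicate 4 neither passed, at -1.0 in W and -0.91 in Co, and the W call was also lost without Ta replicate 6 or any one of W replicates 4 to 8. Flt3 ran from 2.22 to 6.84 in Al with a median of 3.23, from 2.10 to 6.21 in Pb with a median of 2.53, and from 1.79 to 10.5 in DU with a median of 5.49. None of these 3 metals passed against Ta, the log2 fold changes being -0.71 ± 0.40 (SE) in Al, -0.85 ± 0.42 in Pb and -0.04 ± 0.40 in DU. Unlike 6 of the other genes, Flt3 was not at its highest in DU replicate 6, where it stood at 3.47 CPM.

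Cd14 is the surface co-receptor that hands bacterial lipopolysaccharide to Tlr4 on monocytes and macrophages. Its lowest, median and highest CPM were 3.78, 5.18 and 13.8 in Ta and 6.56, 8.29 and 109 in DU. All 8 DU libraries lay above the Ta median and 2 above every Ta library, and 7 of the 8 lay between 6.56 and 17.7. Cd14 rose by 1.77 on the log2 scale in DU (SE 0.43, adjusted p = 0.00333, edgeR's quasi-likelihood test). Without DU replicate 6 the difference was 0.57 with an edgeR adjusted p of 0.204, so edgeR's call rests on that library. With limma and sample weights, DU replicate 6 had a weight of 0.124. Cd14 passed in that fit, at 0.60 with a limma adjusted p of 0.0385. In Pb, where Cd14 ran from 6.71 to 12.3 with a median of 8.94, all 7 libraries lay above the Ta median, with a log2 fold change of 0.52 ± 0.43 and an edgeR adjusted p of 0.327. W (4.61 to 10.1, median 5.83), Co (3.11 to 14.1, median 5.10) and Al (4.42 to 14.1, median 7.22) overlapped Ta, with log2 fold changes of 0.00, 0.11 and 0.21.

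Cd163 is the scavenger receptor for haemoglobin bound to haptoglobin and is recognised in the rat by the ED2 antibody. It was scarce: 3 Ta, 2 W, 4 Co, 1 Al and 1 Pb libraries held no count of it, and the highest count in any library outside DU was 55. Its median CPM was 0.340 in Ta, 0.371 in W, 0.168 in Co, 0.467 in Al and 0.348 in Pb, and its highest value in these metals was 1.93, in Co. In DU the lowest, median and highest values were 0.596, 1.73 and 19.6, from 18 to 530 counts, and no DU library was at 0. All 8 DU libraries lay above the Ta median and 3 above every Ta library. Cd163 rose by 2.90 on the log2 scale in DU (SE 0.97, adjusted p = 0.0347, edgeR's quasi-likelihood test), and without DU replicate 6 by a value that did not pass, 1.76 with adjusted p = 0.245. The call was also lost without any one of Ta replicates 1, 2, 3, 7 and 8. The W, Co, Al and Pb differences from Ta were -0.22, -0.10, -0.47 and -0.15 on the log2 scale, each smaller than its SE of 0.94 to 0.98.

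Mrc1 is the mannose receptor, an endocytic receptor of resident macrophages that is also found on some endothelial cells. It differed from Ta in both directions, lower in Pb and higher in DU. In CPM, Mrc1 had a lowest, median and highest value of 0.889, 3.40 and 22.4 in Ta, 1.41, 2.09 and 2.57 in Pb, and 2.85, 8.10 and 87.8 in DU. The Pb libraries were close together, all 7 below the Ta median and none below the lowest Ta library. Mrc1 fell by 1.56 in Pb (SE 0.59, adjusted p = 0.0226) and rose by 1.62 in DU (SE 0.55, adjusted p = 0.0358) on the log2 scale, by edgeR's quasi-likelihood test. The Pb call was lost without Ta replicate 4, at -0.86 with an edgeR adjusted p of 0.193. The DU call was lost without DU replicate 6, at 0.59 with an edgeR adjusted p of 0.479, and without any one of Ta replicates 1, 2, 3, 7 and 8. Mrc1 ran from 1.15 to 11.4 in W, from 1.26 to 6.94 in Co and from 1.48 to 6.48 in Al, where the differences from Ta were -0.79 ± 0.55, -0.74 ± 0.55 and -0.77 ± 0.54 (SE) and did not pass.

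Cd68 is a glycoprotein of the lysosome membrane, widely used to stain macrophages. It did not pass against Ta in any metal. The lowest, median and highest Cd68 CPM were 3.79, 9.96 and 35.3 in Ta and 7.49, 16.3 and 65.7 in DU, and 6 of 8 DU libraries lay above the Ta median. In W the values were 2.14, 6.74 and 20.2, in Co 4.27, 6.5 and 18, in Al 3.62, 11.4 and 19.0, and in Pb 7.31, 8.82 and 17.0. Groups overlapped throughout, and log2 fold changes were 0.66 ± 0.42 (SE) in DU, -0.82 ± 0.42 in W, -0.55 ± 0.42 in Co, -0.41 ± 0.44 in Pb and -0.24 ± 0.42 in Al.

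Adgre1 encodes F4/80, an adhesion receptor that marks resident macrophages in rodents. Its lowest, median and highest CPM were 3.94, 9.15 and 26.6 in Ta and 1.67, 3.06 and 4.70 in Pb. In Pb, 6 of 7 libraries lay below every Ta library. Adgre1 fell by 1.90 on the log2 scale in Pb (SE 0.65, adjusted p = 0.0119, edgeR's quasi-likelihood test), and this call and that of Csf1r in Pb passed whichever single library was left out. In W it ran from 0.452 to 6.75 with all 8 libraries below the Ta median, in Co from 0 to 13.1 with 4 of 8 below every Ta library, and in DU from 8.35 to 35.4 with 7 of 8 above the Ta median. None of these passed, at -1.19 ± 0.60 (SE) in W, -0.89 ± 0.59 in Co and 0.59 ± 0.59 in DU. The highest of the 47 libraries was Al replicate 7 at 42.8, while the other 7 Al libraries lay between 1.70 and 9.99, and Al differed from Ta by -0.05 ± 0.59.

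Itgam encodes the alpha chain of the integrin CD11b/CD18, present on monocytes, many macrophages and neutrophils. Its lowest, median and highest CPM were 0.888, 2.73 and 19.7 in Ta and 1.56, 5.16 and 53.0 in DU, with 7 of 8 DU libraries above the Ta median and the groups overlapping. It ran from 0 to 5.44 in W, from 0.784 to 4.82 in Co, from 0.801 to 9.08 in Al and from 1.05 to 5.26 in Pb. No metal passed against Ta, the log2 fold changes being -1.37 ± 0.62 (SE), -1.03 ± 0.61, -0.56 ± 0.60 and -0.99 ± 0.64 in W, Co, Al and Pb, and 1.12 ± 0.60 in DU.

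Tyrobp encodes DAP12, the adaptor that carries the activating signal of Trem2 and other myeloid receptors. Tyrobp CPM at the lowest, median and highest library were 6.99, 14.6 and 31.6 in Ta and 14, 23.1 and 65.4 in DU. In DU 7 of 8 libraries lay above the Ta median and 2 above every Ta library, and the difference of 0.91 ± 0.37 (SE) on the log2 scale missed the threshold, with an edgeR adjusted p of 0.0875. It ran from 3.74 to 17.6 in W, from 5.29 to 22.2 in Co, from 9.05 to 34.9 in Al and from 9.15 to 34.1 in Pb. The differences from Ta were -0.73 ± 0.37 and -0.48 ± 0.37 in W and Co and 0.21 ± 0.37 and 0.24 ± 0.38 in Al and Pb, none past the test. In Pb the estimates for Tyrobp and Cd14 were thus above 0 without passing edgeR's test. With the balance as a covariate they were -1.47 and -1.63, also without passing. With limma and sample weights Cd14 passed in Pb, at 0.63 with a limma adjusted p of 0.02.

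Lat2 encodes NTAL, an adaptor of the plasma membrane in myeloid cells, mast cells and B cells that becomes phosphorylated after receptor engagement. Its lowest, median and highest CPM were 1.31, 2.38 and 5.92 in Ta, 0, 0.498 and 2.36 in W, and 0.35, 1.10 and 2.02 in Co. In W, 7 of 8 libraries lay below every Ta library, the exception being W replicate 2, and in Co 5 of 8 did. Lat2 fell by 2.24 in W (SE 0.52, adjusted p = 0.0317) and by 1.52 in Co (SE 0.50, adjusted p = 0.0231) on the log2 scale, by edgeR's quasi-likelihood test. The W call was lost without W replicate 5 or 8 and the Co call without Ta replicate 4, 5 or 6 or Co replicate 5, with single-library estimates of -2.89 to -2.02 in W and -1.70 to -1.28 in Co. Lat2 ran from 0.369 to 2.69 in Al, from 0.334 to 3.27 in Pb and from 1.23 to 4.14 in DU, where the differences were -0.87 ± 0.49 (SE), -1.05 ± 0.52 and -0.12 ± 0.49 and did not pass. Mast cells are another source of Lat2, but 4 of the 5 mast cell genes of the list were at 0 in 2 Ta, 5 W and 5 Co libraries, so their summed level there is that of 1 gene and is not compared.

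Leaving out libraries changed which of the 10 genes passed. Without Ta replicates 4, 5 and 6, no gene passed in W, Co, Al or Pb by edgeR, with 1, 0, 0 and 0 genes at an unadjusted p under 0.05, where 0.00622%, 16.6%, 19.1% and 48.8% of all genes still passed. Flt3 then stood at -0.59 in W and -0.50 in Co, Lat2 at -1.41 in W and -0.67 in Co, and in Pb Csf1r stood at -0.54, Adgre1 at -1.18 and Mrc1 at -0.28. These 7 estimates, which had passed with all libraries, stayed below 0. Over all 10 genes, 7 estimates changed sign in Al, 5 in Co, 4 in W, 4 in Pb and 2 in DU, so that 9 of 10 genes were above 0 in Al and 10 of 10 in DU. Mrc1 in Co went from -0.74 to 0.56 and Itgam in Al from -0.56 to 0.91, neither past the test. The signs thus depend on which Ta libraries are used, and no direction is given for the 10 genes as a group in W, Co, Al or Pb. In DU, 6 genes were then higher, where 18.2% of all genes passed. They were Cd163 by 4.79, Mrc1 by 2.91, Itgam by 2.59, Cd14 by 2.19, Cd68 by 1.53 and Tyrobp by 1.53 on the log2 scale. Their edgeR adjusted p ran from 0.00139 to 0.0196. Csf1r, Adgre1, Flt3 and Lat2 did not pass. Leaving out Ta replicates 4 to 6 lowers Ta by construction. Neither the lost calls in W, Co and Pb nor the added calls in DU are therefore read as a result.

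Without DU replicate 6 alone, none of the 10 genes passed in DU against Ta by edgeR and none had an unadjusted p under 0.05, where 12.3% of all genes passed. Without both DU replicate 6 and Ta replicates 4 to 6, 4 genes were higher in DU, where 15.2% of all genes passed: Cd163 by 3.64 (adjusted p = 0.0364), Mrc1 by 1.86 (0.00785), Tyrobp by 1.26 (0.0307) and Cd14 by 0.97 (0.03) on the log2 scale, by edgeR's quasi-likelihood test. In the same setting Cd14 was also higher in Pb, by 0.93 with an edgeR adjusted p of 0.0119. Here too, leaving out Ta replicates 4 to 6 lowers Ta by construction. With the balance of ribosomal to large-protein genes as a covariate, no gene passed against Ta in any metal, 6, 6, 4, 6 and 1 genes having an unadjusted p under 0.05 in W, Co, Al, Pb and DU. Of all genes, 0%, 0.271%, 1.92%, 3.64% and 3.74% passed in that fit. The estimates of the genes that had passed were -1.68 for Flt3 and -2.24 for Lat2 in W, -1.81 and -1.53 in Co, and -0.94 for Csf1r, -2.05 for Adgre1 and -2.05 for Mrc1 in Pb. In DU they were 2.54 for Cd163, 0.52 for Cd14 and 1.34 for Mrc1. Median log2 fold changes of the 10 genes were -1.1 for W, -1.1 for Co, -0.94 for Al, -1.72 for Pb and 0.31 for DU, so the calls were lost while the medians in W, Co, Al and Pb moved further from 0. The balance moves with the metals, so its part and that of the metal cannot be fully told apart in these comparisons.

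**Figure D3:**
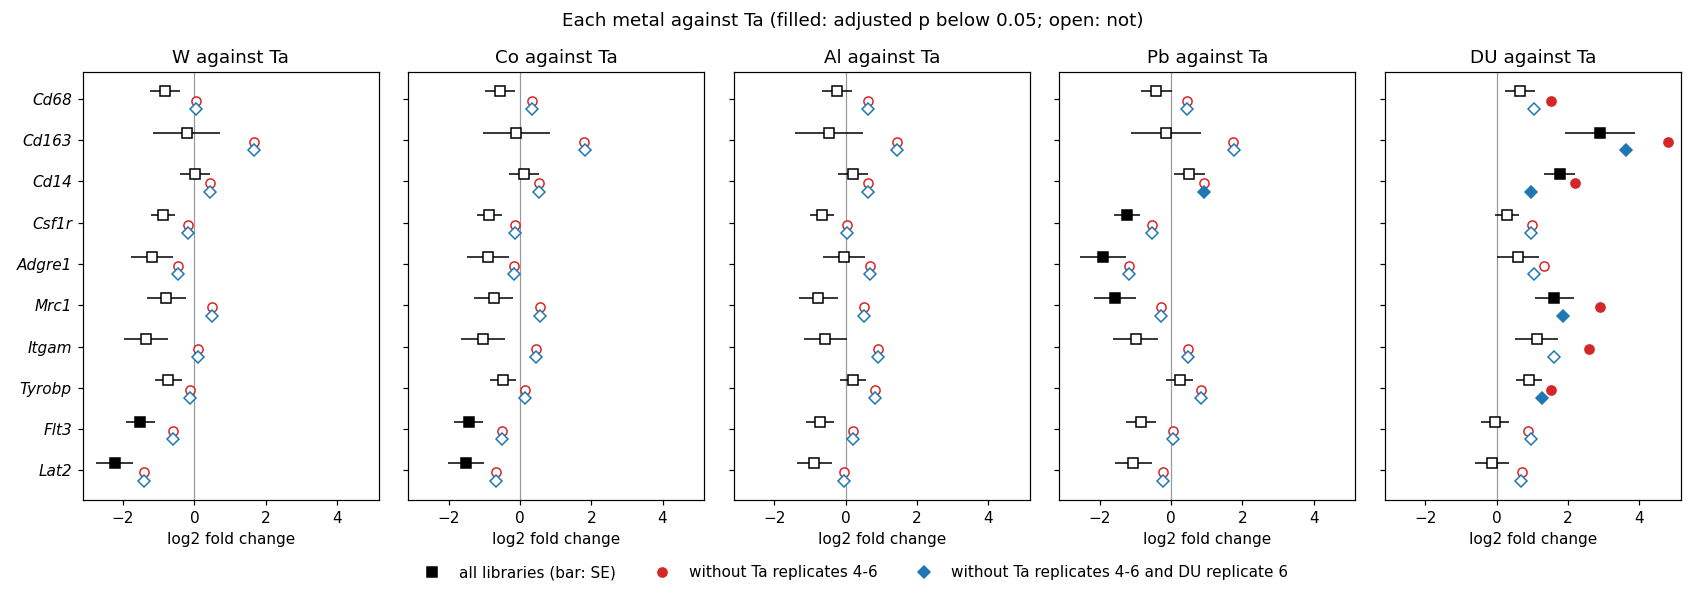
Each panel is a metal compared with Ta, each line a gene, with the log2 fold change on the horizontal axis. Squares use all libraries with bars of 1 SE, and symbols are filled where adjusted p is below 0.05. Circles leave out Ta replicates 4 to 6, and diamonds leave out these and DU replicate 6. Without Ta replicates 4 to 6 the values of all panels move to the right of the squares. In the DU panel the diamonds lie to the left of the circles for Cd163, Cd14, Mrc1 and Itgam.

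DU was also compared with each of the other 4 metals, in comparisons chosen after the values were seen. These do not use the Ta libraries as reference but share the DU libraries. DU was higher than W in all 10 genes, where 20.7% of all genes passed, and higher than Co in 9, all but Adgre1, where 25.2% passed. It was higher than Al in 3 (Cd163, Cd14 and Mrc1), where 12.7% passed, and higher than Pb in 7, all but Tyrobp, Flt3 and Lat2, where 49.6% passed. Median log2 fold changes of the 10 genes were 1.77 against W, 1.44 against Co, 0.92 against Al and 1.39 against Pb, beside 0.03, 0.05, 0.02 and 0.04 over all genes tested.

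DU and Pb libraries were fully apart for 3 genes. All 8 DU libraries lay above all 7 Pb libraries for Csf1r (log2 fold change 1.52 ± 0.36 SE, adjusted p = 0.000582), Adgre1 (2.49 ± 0.66, adjusted p = 0.00169) and Mrc1 (3.19 ± 0.62, adjusted p = 5.03e-05), by edgeR's quasi-likelihood test. These 3 also passed without DU replicate 6, at 1.51, 2.22 and 2.14 with edgeR adjusted p from 0.000687 to 0.0046, and without DU replicates 5 and 6 together, at 1.30, 2.14 and 1.82, where 44.4% of all genes passed. Cd14 passed against Pb at 1.25 ± 0.44, but 5 of 8 DU libraries lay below the Pb median. Without DU replicates 5 and 6 its difference was -0.19 with an edgeR adjusted p of 0.641, so no direction is given for Cd14 between DU and Pb.

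Against W, all 8 DU libraries lay above every W library for Adgre1 (1.78 ± 0.61 SE, adjusted p = 0.0308, lost without DU replicate 6 or W replicate 5 or 7), and 7 of 8 did for Flt3 (1.48 ± 0.41, adjusted p = 0.00861), by edgeR's quasi-likelihood test. Tyrobp was higher in DU than in W by 1.64 ± 0.38 and Lat2 by 2.11 ± 0.52, with all 8 DU libraries above the W median for each. Flt3, Tyrobp and Lat2 passed against W also without DU replicates 5 and 6, at 1.37, 1.14 and 1.98 with edgeR adjusted p of 0.0305, 0.0399 and 0.0147. Against Co, 7 of 8 DU libraries lay above every Co library for Mrc1 (2.36 ± 0.56 SE) and Lat2 (1.39 ± 0.50). The Lat2 call was lost without any one of 8 libraries (DU replicates 2, 5, 6 and 8 and Co replicates 4 to 7), and without DU replicates 5 and 6 only Flt3 passed, at 1.28. Against Al, Mrc1 differed by 2.39 ± 0.56 (SE) with 7 of 8 DU libraries above every Al library, and no gene passed against Al in edgeR's test without DU replicate 6, when 3 had an unadjusted p under 0.05. Without that library, 5, 4, 0 and 3 of the 10 genes passed against W, Co, Al and Pb, where 15.7%, 20.9%, 8.41% and 48.8% of all genes passed, so the counts for Al and Pb lay below the share of all genes. With the balance as a covariate, 7, 9, 4 and 8 passed, where 22.5%, 29.4%, 13.3% and 23.2% of all genes did.

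**Figure D4:**
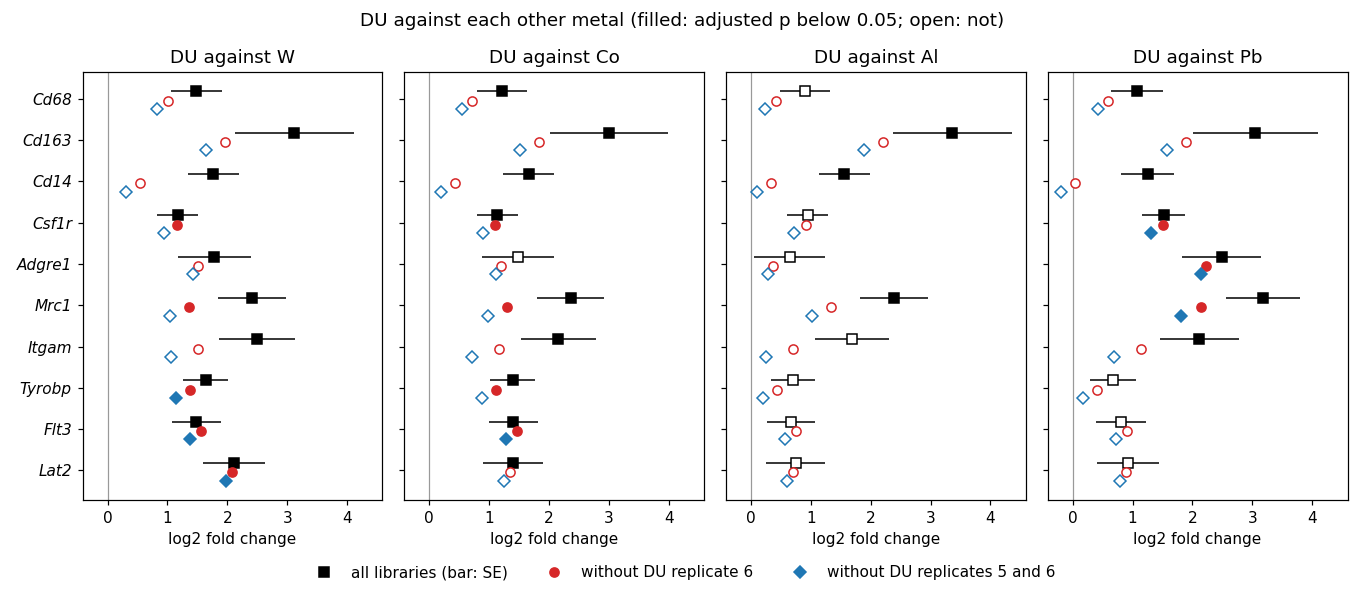
Each panel compares DU with W, Co, Al or Pb, each line a gene, with the log2 fold change on the horizontal axis; squares use all libraries with bars of 1 SE and are filled where adjusted p is below 0.05, and the other symbols leave out DU libraries. With all libraries every value lies at or to the right of 0.64, and the left-out settings draw Cd14 closest to or past 0.

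The other genes of the pathway were read from lists, whose counts stand beside shares of all genes of 1.78% (W), 15.3% (DU), 25.2% (Al), 25.8% (Co) and 53.7% (Pb). In Pb, 4 of 8 receptors, 4 of 10 signalling partners, 4 of 7 transcription factors and 4 of 11 dendritic cell genes passed in either direction, near or below the share of all genes, so these counts are not a result about the lists. Growth factors and chemoattractants (5 tested) had 2 higher and 2 lower in Pb, 1 lower in Co, 2 lower in Al, 2 higher in DU and none past the test in W, where 1 had an unadjusted p under 0.05. Csf1, the main macrophage growth factor, averaged 13.9 ± 3.94 CPM (SD, n = 8) in Ta and fell to 6.24 ± 3.66 in Co, 8.04 ± 1.94 in Al and 6.07 ± 1.02 (n = 7) in Pb, log2 fold changes of -1.15, -0.78 and -1.19 with edgeR adjusted p of 0.00387, 0.0397 and 0.000958. Every library of these metals lay below the Ta median, and without Ta replicates 4 to 6 Csf1 passed in Pb only, at -0.92. Il34, the other ligand of Csf1r and a product of tubule cells, rose in Pb from 40.3 ± 11.3 to 68.8 ± 16.9 CPM (edgeR adjusted p = 0.00127). Flt3lg, the ligand of Flt3, rose from 6.04 ± 1.23 to 9.11 ± 0.936 in Pb and to 8.91 ± 1.81 in DU, where its edgeR adjusted p was 0.025 with all libraries and 0.0526 without DU replicate 6. The chemokine Cx3cl1 fell from 82.9 ± 9.84 to 50.6 ± 6.94 in Pb. Thus, of the ligands of Csf1r, Csf1 fell and Il34 rose in the metal where Csf1r itself fell.

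Of 8 receptors for growth factors, chemokines and antibody, 3 were lower and 1 higher in Pb, 1 was lower in Al, and none passed in W, Co or DU by edgeR, where 4, 2 and 2 had an unadjusted p under 0.05. In Pb the chemokine receptor Cx3cr1, a marker of kidney macrophages and dendritic cells, fell from 4.5 ± 2.30 to 1.28 ± 0.639 CPM, while Csf2ra rose from 27.7 ± 11.2 to 49.6 ± 6.06 and Csf2rb, the shared beta chain, fell from 265 ± 51.5 to 160 ± 33.6. Without Ta replicates 4 to 6 the last 2 passed and Cx3cr1 did not, at -1.22 with an edgeR adjusted p of 0.0695. Csf2rb was the largest part of the summed CPM of this list, which had a median of 321 in Ta. That sum was lowest, at 284, in Ta replicate 4, the highest Ta library for 9 of the 10 genes. In DU it was highest in replicate 6, at 320. Which cells gave the Csf2rb signal was not tested. Of 10 signalling partners, 1 was lower in W, 3 in Co, 1 in Al and 4 in Pb, with none higher, and in DU none passed, 1 having an unadjusted p under 0.05. Inpp5d, the inositol phosphatase SHIP1 of blood cells, fell in 4 metals, from 14.2 ± 5.78 CPM in Ta to 5.27 ± 2.7 in W, 6.19 ± 4.48 in Co, 7.16 ± 2.85 in Al and 3.85 ± 1.46 in Pb. Its edgeR adjusted p ran from 7.01e-05 in Pb to 0.0396 in W, and without Ta replicates 4 to 6 it passed in Pb only, at -1.48. Syk, the kinase that binds the Tyrobp adaptor, fell by 0.65 in Co and by 0.80 in Pb on the log2 scale, and passed in neither without Ta replicates 4 to 6 (-0.32 and -0.49).

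Of 7 transcription factors, 3 were lower in Co and 4 in Pb, none was higher, and none passed in W, Al or DU by edgeR, where 3, 1 and 1 had an unadjusted p under 0.05. Zbtb46, a factor of classical dendritic cells that endothelial cells also express, fell from 3.41 ± 1.34 to 0.927 ± 0.446 CPM in Pb. Irf8, needed for one branch of dendritic cells, fell from 14.2 ± 9.86 to 6.38 ± 4.03 in Co and to 6.03 ± 1.29 in Pb. Without Ta replicates 4 to 6, 2 factors were lower and 1 higher in Pb, and Zbtb46 was among the lower, at -1.50, while Irf8 did not pass in Co (-0.47) or Pb (-0.58). Podocyte genes were lower in Pb in 6 of 6 cases, where 53.7% of all genes passed. They summed to 39.9 to 91.0 CPM in Pb against 166 to 407 in Ta. Endothelial genes were lower in 5 of 6 cases and summed to 52.2 to 83.7 against 176 to 276. The fibroblast and pericyte genes summed to 116 to 227 in Pb against 315 to 832 in Ta. These sums move with the Pb results on Csf1r, Adgre1, Mrc1 and Zbtb46, and their part in them was not tested. Such genes were also lower outside Pb. In Al, 6 of 6 podocyte, 4 of 6 endothelial and 4 of 7 fibroblast and pericyte genes were lower, where 25.2% of all genes passed. In Co the counts were 1, 2 and 5, where 25.8% passed. None of the 10 genes passed in Al.

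Of 7 integrin and toll-like receptor partners of Itgam and Cd14, 1 was lower in Co and 2 in Pb, 1 was higher in DU, and none passed in W or Al by edgeR, where 1 and 0 had an unadjusted p under 0.05. The gene higher in DU was Lbp, the carrier of lipopolysaccharide to Cd14, at 69.9 ± 161 CPM against 13.2 ± 9.62 in Ta, and without DU replicate 6 its log2 fold change was 0.02. Of 7 resident macrophage and scavenger receptor genes tested, 1 was lower in Co, 1 in Al and 2 in Pb, 1 was higher in Pb and 1 in DU, and none passed in W, where 2 had an unadjusted p under 0.05. Lyve1, present on perivascular macrophages and on lymphatic endothelium, fell from 2.96 ± 1.90 to 0.376 ± 0.258 CPM in Pb, a log2 fold change of -2.96 that was -3.16 without Ta replicates 4 to 6. Folr2, another gene of resident macrophages, rose in DU from 3.47 ± 2.09 to 7.04 ± 2.98 CPM, by 1.02 on the log2 scale, and did not pass without DU replicate 6, at 0.84 with an edgeR adjusted p of 0.0984.

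Of 10 lysosome and effector genes of macrophages, 3 were higher in DU and 2 lower and 1 higher in Pb, and none passed in W, Co or Al by edgeR, where 3, 2 and 1 had an unadjusted p under 0.05. In DU the complement genes C1qa and C1qc, made largely by macrophages, rose from 30.1 ± 18.7 to 67.8 ± 41.6 and from 32.2 ± 18 to 71.8 ± 63.3 CPM, and Lgals3, a galectin that injured tubules also make, from 41.3 ± 21.7 to 85 ± 47.6. In Pb, Mpeg1, which encodes perforin-2, fell from 24.6 ± 16.1 to 5.42 ± 1.79 CPM, while Lgals3 rose to 82.4 ± 25.3. This DU count depended on the libraries: 9 were higher without Ta replicates 4 to 6, 1 without DU replicate 6 and 6 without all 4, where 18.2%, 12.3% and 15.2% of all genes passed in either direction. Without DU replicate 6, Lgals3 was the one that passed, at 0.81, and C1qa (0.89) and C1qc (0.68) did not. Of 11 dendritic cell and antigen presentation genes, 3 were lower in Co, 1 in Al and 4 in Pb, and none passed in W or DU by edgeR, where 7 and 0 had an unadjusted p under 0.05. Clec9a, a receptor of the cross-presenting dendritic cells, fell by 1.69 in Co and by 2.06 in Pb on the log2 scale, and Cd74, the invariant chain of MHC class II, fell from 734 ± 285 CPM to 423 ± 146 in Co, 492 ± 127.4 in Al and 447 ± 118 in Pb. Without Ta replicates 4 to 6, no gene of this list passed in Co, Al or Pb, with 0 at an unadjusted p under 0.05 in each, and 2 were higher in DU. Clec9a then stood at -1.14 in Pb.

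With the balance as a covariate, the estimates of several of these genes in Pb turned: Il34 stood at -0.34, Csf2ra at -0.20, Csf2rb at 0.22 and Lgals3 at -0.63 on the log2 scale, none past the test, and Zbtb46 at 0.00. The directions of Il34, Csf2ra, Csf2rb and Lgals3 in Pb given above are those without the covariate. The balance ran from 0.975 to 1.83 in Ta and from 2.69 to 4.02 in Pb, without overlap. The covariate fit therefore cannot separate the balance from the metal in Pb, and it decides none of these directions.

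In DU, 2 of 5 genes tested from the neutrophil list were also higher, where 15.3% of all genes passed. S100a8 averaged 18.6 ± 50.1 CPM against 0.156 ± 0.167 in Ta, and S100a9 had a log2 fold change of 5.999. Without DU replicate 6 none of the 5 was higher, where 12.3% of all genes passed. S100a8 then differed by 2.52 with an edgeR adjusted p of 0.132. Of the 10 genes, 6 were at their highest of all libraries in that same library: Itgam, Cd14 and Tyrobp, which neutrophils also express, and Cd68, Cd163 and Mrc1. The part of neutrophil RNA in these values was not tested.

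Across the 47 libraries, the genes most like the 10 in their pattern were Nckap1l, Hcls1, C1qc, Pld4, Laptm5, Ctss, Lyz2, Fcer1g, Cp and C1qa. Likeness was Spearman's rho between a gene's log2 CPM and the mean log2 CPM of the 10, over 12892 genes with a mean of at least 1 CPM. It ran from 0.948 for Nckap1l to 0.924 for C1qa. Over the 43 libraries without Ta replicates 4 to 6 and DU replicate 6, the same 10 genes led, at 0.906 to 0.940. The points share libraries and their depth, and rho is given as a description.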

How the data were processed

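Kidney RNA of 47 rats was analysed. The values are raw counts per gene deposited by the authors. Per the submitters' processing notes, tools named are STAR 2.7.2a and featureCounts of Subread 1.6.4, and the build is mRatBN7.2. The annotation, the strand setting and the treatment of reads with several matches are not given in the sources used here, so genes that overlap another gene are less certain. Of the table, 29 lines that name no gene (0.0317% of counts) were left out. Counts of 2 (20199) and 4 (15592) were commoner than counts of 1 (6429) and 3 (4773); the cause was not tested.

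The filter on low counts was filterByExpr of edgeR 4.0.16 (R 4.3.3), library totals were scaled by TMM, and each gene was tested, two-sided, by the quasi-likelihood F test in 1 fit over the 6 metals, with Benjamini-Hochberg adjustment and a threshold of 0.05. DESeq2 1.42.0 and limma 3.58.1 (voom with sample quality weights) were alternatives, as were other scalings and filters, each library left out, and the sets of libraries named in the text. The tests were checked on simulated data. No 2 libraries within a metal were copies of each other (161 pairs, lowest chi-square per degree of freedom 16.3). Replicate numbers come from the sample titles, and nothing in the labels pairs animals of different metals. Depth sets counting error only.

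The 10 genes and all lists were chosen with earlier results of these data known. All 10 are named; of each list, up to 4 genes with the smallest unadjusted p against Ta in any metal were eligible, and 10 genes most alike by Spearman's rho. Spi1 was named beside the promoters outside this rule, after its values were seen. The comparisons of DU with other metals, the fits without DU replicates 5 and 6 and the recounts of the lists without libraries were chosen after seeing the data.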

Additional observations from a re-analysis of the deposited data

Results flagged for a closer look

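In 17 of 60 groups of 1 gene in 1 metal, the highest library lay further from its neighbour than Dixon's test at the 95% level allows. Chance gives about 1 in 20 where values are normally distributed. The test was run on CPM, for which this was not tested, so the rate by chance may be higher. DU replicate 6 and Ta replicate 4 account for 6 each, and the groups of the 10 genes are not independent, since the genes share libraries. In DU replicate 6, Cd14 stood at 109 CPM (next DU library 17.7), Mrc1 at 87.8 (20.02), Cd68 at 65.7 (26.3), Itgam at 53.0 (15.8), Adgre1 at 35.4 (17.3) and Cd163 at 19.6 (3.85). In Ta replicate 4, Cd68 stood at 35.3 (18.2), Adgre1 at 26.6 (14.04), Mrc1 at 22.4 (7.88), Itgam at 19.7 (9.26), Flt3 at 17.6 (7.14) and Cd14 at 13.8 (7.47). In Al replicate 7, Adgre1 stood at 42.8 (9.99), and in Al replicate 6, Cd14 at 14.1 (8.89) and Flt3 at 6.84 (4.16). In W replicate 2, Mrc1 stood at 11.4 (4.39) and Lat2 at 2.36 (0.693).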

How the results depend on the processing

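With all libraries, 2, 2, 0, 3 and 3 of the 10 genes passed against Ta in W, Co, Al, Pb and DU, and 10, 9, 3 and 7 passed in DU against W, Co, Al and Pb. In W, 1 passed with upper quartile factors, 1 with no filter on low counts, and 0 with voom, which also gave 0 in Co (unadjusted p under 0.05 in 1 and 0 genes). Against Ta, voom gave 4 higher in DU, where 28.7% of all genes passed, Cd163 (2.66) and Cd14 (0.60) among them. In Pb it gave 2 lower and 1 higher, where 61.6% of all genes passed. Cd14 was the higher one there, and Mrc1 did not pass, at -0.90. DESeq2 gave 5 in DU against Al. With only the groups compared in the fit, counts were 0 in W, 1 in Co, 0 in DU against Ta and 5 in DU against Co, with 5 and 4 genes at an unadjusted p under 0.05 in W and in DU against Ta. With the replicate block they were 1, 2, 0, 3 and 2 against Ta and 10, 7, 2 and 5 in DU against W, Co, Al and Pb. The libraries share only a number: over 115 same-numbered pairs the median correlation of deviations from the group means was 0.0116 (-0.353 to 0.360, 20 over 0.1), against -0.000744 over 805 other pairs. With the balance covariate no gene passed against Ta (0 in W, Co, Pb and DU). Without Ta replicates 4, 5 and 6 counts were 0 in W, Co and Pb, 6 in DU, and 5 in DU against Al. Without the sixth DU library they were 0 in DU against Ta and 5, 4, 0 and 3 against W, Co, Al and Pb, with 6 passing both tests of any difference. Without all 4 libraries they were 0, 0 and 1 in W, Co and Pb, 6, 4, 1 and 4 in DU against W, Co, Al and Pb, and 6 for any difference. Without the fifth and sixth DU libraries they were 0 in DU against Ta, 3, 1, 0 and 3 against W, Co, Al and Pb, and 6 for any difference; Cd14 in DU against Pb turned to -0.19, and to -0.03 with voom (-0.026). With single libraries left out, counts ran from 0 to 2 in W, 0 to 3 in Co, 0 to 0 in Al, 2 to 4 in Pb and 0 to 5 in DU against Ta, and from 5 to 10, 4 to 10, 0 to 5 and 3 to 8 in DU against W, Co, Al and Pb, with 6 to 10 for any difference. In DU against Ta the count was 1 without any one of Ta replicates 1, 2, 3, 7 and 8, 5 without Ta replicate 4 and 0 without DU replicate 6. In Co it was 0 without Ta replicate 4 and 1 without Ta replicate 5, Ta replicate 6 or Co replicate 5. In W it was 1 without Ta replicate 4, Ta replicate 6 or W replicate 4, 6 or 7, and 0 without W replicate 5 or 8. In DU against Al it was 5 without DU replicate 1 or 3. Depth limits Cd163 most, with 0 counts in 11 of the libraries. Except where shown, the cause of a change was not tested.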
